A study of Mus musculus with 16 samples.

Results

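The genes described here are 35 mouse liver genes of nitrogen disposal: 7 of the urea cycle and its ornithine carrier, 6 that release or transfer amino nitrogen, 9 that break down serine, glycine, histidine and proline, 8 of tyrosine and tryptophan breakdown and 5 of the methionine cycle and transsulfuration. They were taken by gene symbol, and all 35 were found among the 24970 genes of the table and passed its low-count filter, with at least 93 counts in each library. Polyadenylated RNA was sequenced from 16 livers, 4 in each of 4 groups. C57BL/6 Ntac mice (wild-type below) and a strain labelled humanized PXR-CAR-CYP3A4/3A7 (humanized below) each received either vehicle, 2% DMSO in corn oil, or TCPOBOP. TCPOBOP is a synthetic agonist of mouse CAR, the nuclear receptor that switches on drug metabolism genes in hepatocytes. The labels give 3 mg/kg in 2 administrations, read here as 24 h apart, over 48 h. Of sex, age, feeding state, time of day and litter the labels say nothing. The humanized strain differs from wild-type at PXR, CAR and the CYP3A genes together, so their effects cannot be told apart. The labels number the libraries of a group without saying how mice were housed or libraries processed, so a p-value measures the spread between these libraries, which may in part be technical.

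Mammalian liver is the main site where amino acids are stripped of nitrogen. Transaminases and glutamate dehydrogenase pass amino groups to glutamate, free ammonia and aspartate, the urea cycle joins both nitrogen sources into urea across the mitochondrial matrix and the cytosol, and the carbon skeletons go to glucose, ketone bodies or oxidation. Methionine follows its own route, in which it is activated to the methyl donor S-adenosylmethionine, and the homocysteine that is left is either methylated back to methionine or passed on to cysteine. Many of these genes are transcribed mainly in periportal hepatocytes and respond to glucagon, glucocorticoids and feeding.

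Levels are given as CPM, counts relative to the total of the library, scaled by TMM, and the values of a group are listed in the order of library number 1 to 4. A log2 difference is given ± its standard error from the fit of all 16 libraries, and a gene was called when its p, adjusted over all 12913 genes tested, was under 0.05. Wild-type TCPOBOP libraries were the deepest, with 30228724 to 37998473 counts each over all transcript accessions, against 11827994 to 19483951 over the other groups. Over the genes tested, with 1 accession per gene, the totals were 17817392 to 22313175 against 6825711 to 11376521. The greater depth thus coincided with 1 group. Mouse Nr1i3, which encodes CAR, was at 107, 93.4, 106 and 94.6 CPM in wild-type and 2.70, 1.63, 1.96 and 2.50 CPM in humanized vehicle livers, and Nr1i2, which encodes PXR, at 129, 195, 109 and 113 and 17.8, 18.7, 20.7 and 18.6 CPM. The CAR target Cyp2b10 went from 16.4, 37.3, 89.9 and 49.3 CPM to 2871, 3561, 3325 and 3044 CPM with TCPOBOP in wild-type liver and from 23.1, 14.9, 15.6 and 16.1 CPM to 79.7, 63.3, 201 and 76.3 CPM in humanized liver.

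Some libraries stood apart from the others of their group. Across the 12056 genes with a known length, the level of a gene relative to its mean over all libraries fell with transcript length in humanized TCPOBOP libraries 1 and 2 (rho -0.43 and -0.37) and rose with it in libraries 3 and 4 (0.30 and 0.36). The trend with length also differed between the strains under vehicle. The level fell with length in humanized vehicle libraries (-0.21, -0.25, -0.30 and -0.26), against 0.36, 0.01, 0.29 and 0.30 in wild-type vehicle libraries. It rose with GC content in library 2 of wild-type vehicle (0.59) and of wild-type TCPOBOP (0.28), against -0.14 to -0.39 in the other wild-type libraries. Of the 35 members, 24 were highest in library 2 of wild-type vehicle and 24 in library 2 of wild-type TCPOBOP, and 33 were lowest of their group in wild-type TCPOBOP library 4, where all members summed to 15571 CPM against 19624 to 24694 CPM in the other 3. The median member transcript was 2386 bases long with 53.7% GC, against 2898 bases and 50.5% over the genes tested. These rho values are across genes, which are not independent, and each count below that moves by over 1.5 times without these libraries is given again without them. Shares over all genes are from the fit of all 16 libraries and are not given for the alternatives.

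Hepatocyte markers were high in every library, as the labelled tissue calls for. The 8 summed to 89513 to 122111 CPM with vehicle and 35640.0 to 54295 CPM with TCPOBOP in wild-type liver, and to 65738 to 88559.7 and 68184 to 87039 CPM in humanized liver. In wild-type liver 3 of these 8 fell with TCPOBOP, namely Alb (-1.56, adjusted p = 0.000271), Trf (-1.23, adjusted p = 0.00128) and Ttr (-0.72, adjusted p = 0.0378), and in humanized liver none was called. No Kupffer, endothelial or stellate marker, of 10 each, was called with TCPOBOP in wild-type liver, while all 8 cell-cycle markers rose (summed levels of 13.5 to 31.8 CPM with vehicle and 215 to 328 CPM with TCPOBOP). Under vehicle, 7 of 10 Kupffer, 3 of 10 endothelial and 3 of 10 stellate markers were lower in humanized liver, with summed Kupffer levels of 291 to 518 against 568 to 1280.0 CPM in wild-type. Another stellate marker was called as higher. Of the 5 erythroid markers tested, 4 were lower and none was higher. In humanized liver 2 of 10 stellate markers fell with TCPOBOP and all 10 were negative, with sums of 364 to 392 CPM with vehicle and 133 to 321 CPM with TCPOBOP. The acinar markers Pnlip and Prss2 were at 0 in all libraries. In such bulk samples, fewer cells of a type and less RNA per cell cannot be told apart, and the part of these marker differences in the results below was not tested.

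TCPOBOP lowered 11 of the 35 genes in wild-type liver and raised none. Over all genes tested, 4.99% fell and 8.1% rose. The 11 were Ass1 and Arg1 of the urea cycle, Glud1, Gls2, Got1 and Etnppl among the genes that move amino nitrogen, Hal and Amdhd1 of histidine breakdown, and Mat1a, Bhmt and Cbs of the methionine cycle. The median log2 difference of the 35 was -0.61, against -0.02 over all genes, and 31 of the 35 were negative. In 15 of the 35, all 4 TCPOBOP libraries lay below all 4 vehicle libraries, which held for 8.4% of all genes. In humanized liver 2 of the 35 fell, Sdsl and Cth, and none rose, against 1.19% and 1.32% of all genes, with a median of -0.41 against 0.02. There, 17 of the 35 had all TCPOBOP libraries below all vehicle libraries, against 5.35% of all genes, so the range of libraries separated more members than the test called.

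Together the 35 genes averaged 31802 TMM-scaled CPM in wild-type vehicle livers and 20354.8 in wild-type TCPOBOP livers. The sums lay at 26781 to 41689 CPM with vehicle and at 15571 to 24694 CPM with TCPOBOP, without overlap. In humanized livers they lay at 33322 to 37914 CPM with vehicle and at 24007 to 31846 CPM with TCPOBOP, again without overlap. These sums are led by a few abundant genes, with the largest wild-type vehicle means for Cps1 (5201.6 CPM), Mat1a (3946.6) and Tat (2888.6). Per kilobase of transcript, Gnmt (2007 CPM per kb), Hpd (1285), Tat (1216), Mat1a (1138) and Arg1 (1080) were the most abundant members in wild-type vehicle liver, and Sdsl, at 17.8 CPM per kb, the least.

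**Figure D1:**
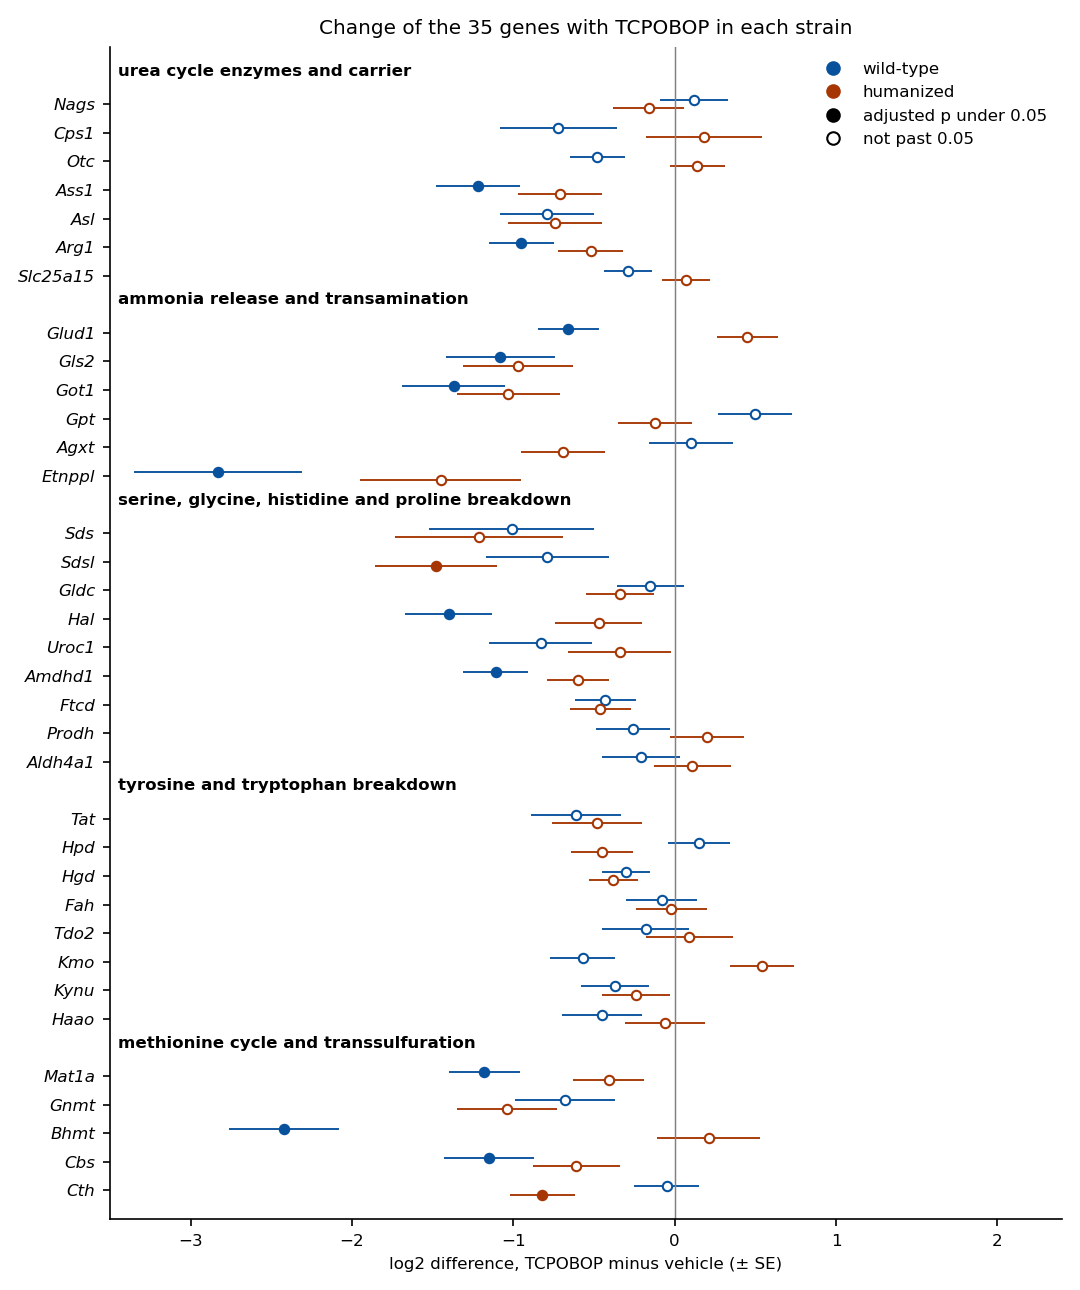
Log2 difference between TCPOBOP and vehicle (x axis, ± SE) for each of the 35 genes (rows, grouped by role) in wild-type (blue) and humanized (brown) liver, 4 mice per group. Filled points mark an adjusted p under 0.05: 11 genes in wild-type liver and Sdsl and Cth in humanized liver, all on the side of lower levels.

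**Figure D2:**
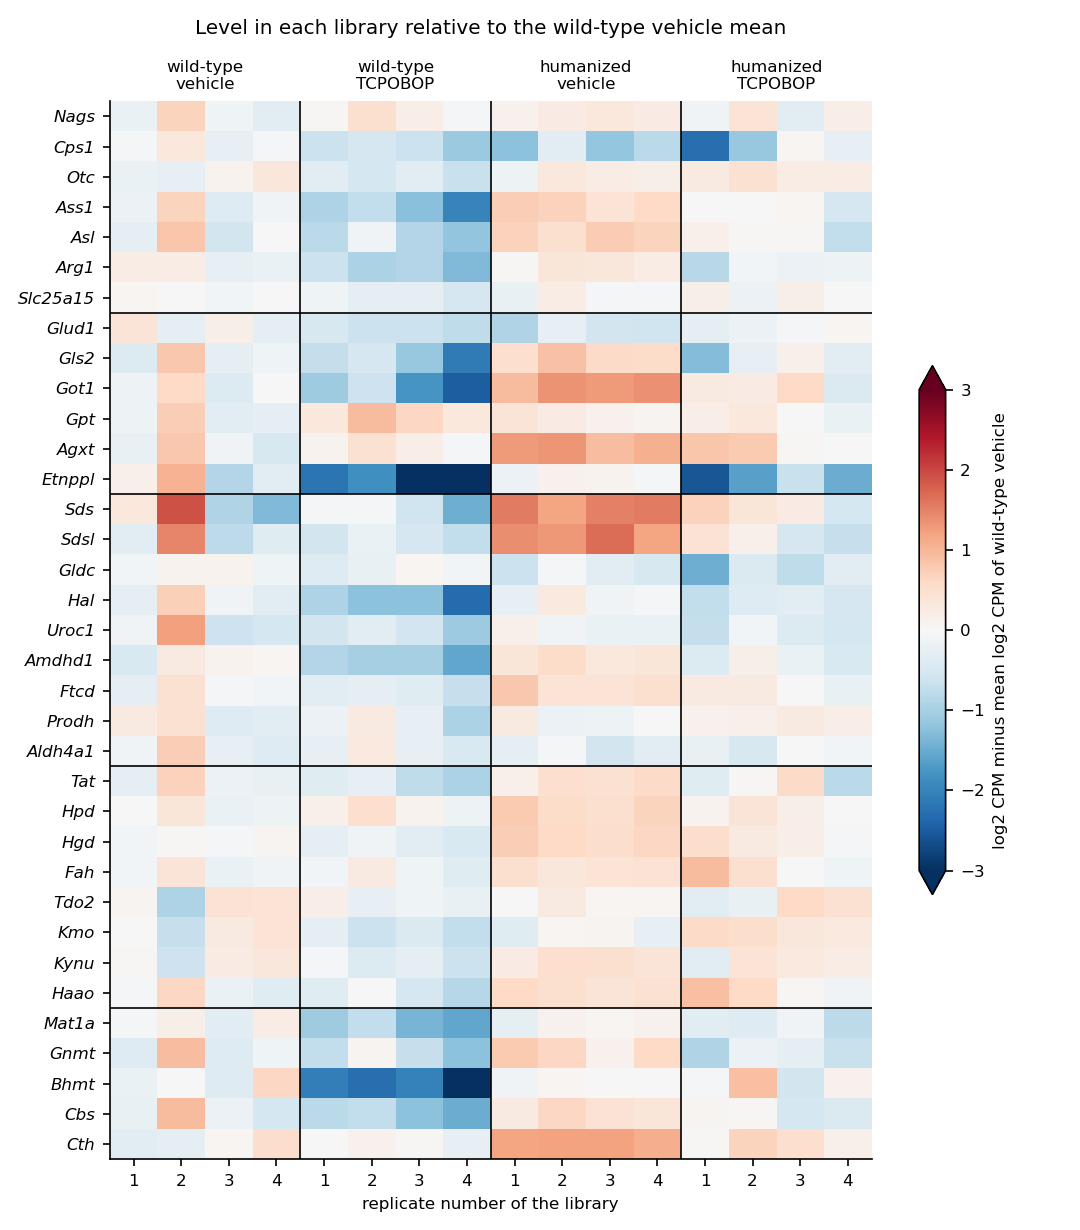
Log2 level of each gene (rows) in each of the 16 libraries (columns, by group and library number), minus its mean in wild-type vehicle livers; colours end at 3 on either side and lower or higher values take the end colour. Wild-type vehicle library 2 is redder than the other 3 of its group for many genes, and the Etnppl and Bhmt rows are deep blue in the wild-type TCPOBOP libraries.

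Among the urea cycle genes, Ass1 and Arg1 fell in wild-type liver and the other 5 were not called. Ass1 (argininosuccinate synthase, which adds the aspartate nitrogen; NM_007494, chromosome 2, 31470270 to 31520670 of mm10, as RefSeq gives them in GRCm38.p6 for all genes below) was at 585, 1042, 507 and 617 CPM with vehicle and 348, 395, 275 and 164 CPM with TCPOBOP in wild-type mice. All TCPOBOP libraries lay below all vehicle libraries, and the log2 difference was -1.22 ± 0.26 (adjusted p = 0.0038), a 2.33-fold fall. In humanized mice Ass1 was at 1102, 1061, 876 and 997 CPM with vehicle and 662, 651, 689.6 and 464 CPM with TCPOBOP. These groups did not overlap either, but the difference of -0.71 ± 0.26 (adjusted p = 0.155) did not pass. Arg1 (arginase, which splits off urea; NM_007482, chromosome 10, 24915207 to 24927470) went from 1829.8, 1841, 1340.3 and 1370.5 CPM to 1009.5, 821, 851 and 626 CPM in wild-type mice, without overlap, and fell by 0.95 ± 0.20 (adjusted p = 0.00395). In humanized mice it was at 1628, 2029, 1984 and 1828 CPM with vehicle and 887, 1498, 1394 and 1418 CPM with TCPOBOP, lowest in TCPOBOP library 1, and the difference was -0.52 ± 0.20 (adjusted p = 0.18).

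Cps1 and Otc carry out the mitochondrial steps, and neither was called in either strain. Cps1 (carbamoyl phosphate synthetase, which fixes free ammonia; NM_001080809, chromosome 1, 67122426 to 67231267) was at 5034, 6411, 4378 and 4983 CPM with vehicle and 3300.3, 3644, 3277 and 2377 CPM with TCPOBOP in wild-type liver. The groups did not overlap, and the difference was -0.72 ± 0.36 (adjusted p = 0.22). In humanized liver it was at 2188, 4146, 2307 and 2957 CPM with vehicle and 1068, 2329, 5346 and 4379 CPM with TCPOBOP. TCPOBOP libraries 1 and 2 were the low ones. Its humanized difference of 0.18 (adjusted p = 0.853) became 0.79 (adjusted p = 0.044) without those libraries and -0.04 (adjusted p = 0.963) with the length and GC trends removed. Without those libraries its wild-type difference also passed, at -0.72 (adjusted p = 0.0308), since the spread is shared by all groups. Otc (ornithine transcarbamylase, which makes citrulline; NM_008769, chromosome X, 10252230 to 10321024) went from 279, 274, 347 and 411 CPM to 257, 222, 259.8 and 203 CPM in wild-type mice. These did not overlap, and with -0.48 ± 0.17 (adjusted p = 0.0735) Otc was the uncalled member nearest to the threshold. It was called without wild-type vehicle library 2 (adjusted p = 0.0293) and by DESeq2 (adjusted p = 0.0171). In humanized mice Otc was at 290.2, 400.3, 379 and 363 CPM with vehicle and 392, 441, 374 and 375 CPM with TCPOBOP, which overlapped (0.14, adjusted p = 0.714).

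The remaining urea cycle genes did not pass in either strain. Asl (argininosuccinate lyase, which releases arginine) was at 544, 1203, 459 and 675 CPM with vehicle and 384, 626, 363 and 294 CPM with TCPOBOP in wild-type liver, where library 2 was the highest of both groups and the groups overlapped (-0.79 ± 0.29, adjusted p = 0.0846). Without vehicle library 2 the difference was -0.43 (adjusted p = 0.275), while without TCPOBOP library 2 its adjusted p was 0.027 and without vehicle library 3 it was 0.0472. In humanized liver Asl was at 1079.7, 938, 1133 and 1064 CPM with vehicle and 744, 691, 687 and 400.4 CPM with TCPOBOP, without overlap (-0.74 ± 0.29, adjusted p = 0.18). Slc25a15, the mitochondrial ornithine carrier, was at 482, 461, 439 and 464 CPM with vehicle and 419, 385, 381 and 323 CPM with TCPOBOP in wild-type mice, a narrow gap between the groups (-0.29 ± 0.15, adjusted p = 0.241). It was at 396, 536, 451 and 444 CPM with vehicle and 519.9, 411, 517 and 463 CPM with TCPOBOP in humanized mice, which overlapped (0.07, adjusted p = 0.875). Nags (N-acetylglutamate synthase, which makes the activator of Cps1) was at 64.7, 118, 67.6 and 58.02 CPM with vehicle and 76.2, 104, 84.4 and 71.2 CPM with TCPOBOP in wild-type and 80.4, 87.5, 92.8 and 87.7 CPM with vehicle and 68.96, 98.6, 58.9 and 85.2 CPM with TCPOBOP in humanized mice. Its groups overlapped in both strains (0.12, adjusted p = 0.8 in wild-type and -0.16, adjusted p = 0.756 in humanized mice). Summed over the 7 genes, wild-type livers held 7539 to 11350.1 CPM with vehicle and 4058 to 6198 CPM with TCPOBOP, and humanized livers 6765 to 9197 and 4342 to 9066 CPM.

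Of the 6 genes that release or transfer amino nitrogen, 4 fell in wild-type liver. Etnppl (ethanolamine-phosphate phospho-lyase, which frees ammonia from phosphoethanolamine; NM_027907, chromosome 3, 130617448 to 130635750) had the largest fall of all 35. It was at 253, 470.4, 125 and 185 CPM with vehicle and 50.03, 63.9, 22.6 and 8.72 CPM with TCPOBOP, where libraries 3 and 4 were lowest, and it fell by 2.83 ± 0.52 (adjusted p = 0.00104), or 7.12-fold. In humanized mice it went from 205, 250.2, 247 and 224 CPM to 38.98, 73.8, 143 and 81.3 CPM, without overlap but with a wide spread under TCPOBOP, and -1.45 ± 0.50 (adjusted p = 0.127) did not pass. Got1 (cytosolic aspartate aminotransferase, which supplies aspartate to Ass1; NM_010324, chromosome 19, 43499752 to 43524605) was at 208, 349, 173 and 228 CPM with vehicle and 111, 149.6, 67.6 and 41.7 CPM with TCPOBOP in wild-type liver and fell by 1.37 ± 0.32 (adjusted p = 0.00754). In humanized mice Got1 was at 449, 589, 562 and 602 CPM with vehicle and 278, 277, 349.7 and 171 CPM with TCPOBOP, again without overlap, and -1.03 ± 0.32 (adjusted p = 0.0959) did not pass.

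Glud1 was the member of this group whose response differed between the strains. Glud1 (glutamate dehydrogenase, which releases ammonia from glutamate; NM_008133, chromosome 14, 34310727 to 34345033) was at 1585, 980.2, 1365 and 1003 CPM with vehicle and 869, 771, 771 and 714 CPM with TCPOBOP in wild-type liver, and it fell by 0.66 ± 0.19 (adjusted p = 0.0277). In humanized liver it was at 641, 1014, 823 and 801 CPM with vehicle and 989, 1073, 1165 and 1265 CPM with TCPOBOP. There the TCPOBOP libraries were mostly the higher ones, with library 1 below the highest vehicle library, and 0.45 ± 0.19 (adjusted p = 0.216) did not pass. The fall in wild-type liver was not called without wild-type vehicle library 1 or 3 (adjusted p = 0.0991 and 0.0824) or without TCPOBOP library 2, 3 or 4 (0.0624, 0.08 and 0.0916). Gls2 (liver glutaminase, which releases ammonia from glutamine) went from 317, 733, 349 and 388 CPM to 255, 299, 192 and 97.04 CPM in wild-type mice and fell by 1.08 ± 0.34 (adjusted p = 0.0415), the called fall nearest to the threshold. It was lost in 11 of 26 alternatives, with adjusted p = 0.133 without wild-type vehicle library 2, 0.116 without TCPOBOP library 3 and 0.135 without TCPOBOP library 4. It was 0.0515 to 0.055 without humanized vehicle library 1, 3 or 4, humanized TCPOBOP library 2, wild-type vehicle library 4 or wild-type TCPOBOP library 1. In humanized mice Gls2 was at 597, 775, 624 and 615 CPM with vehicle and 171, 356, 472 and 333 CPM with TCPOBOP, without overlap (-0.97 ± 0.34, adjusted p = 0.138).

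The alanine transaminases were not lowered in wild-type liver. Gpt (cytosolic alanine aminotransferase) was at 355, 657, 319.9 and 327 CPM with vehicle and 494, 764, 605 and 491 CPM with TCPOBOP, and Agxt (alanine-glyoxylate aminotransferase, which detoxifies glyoxylate) at 278, 561, 301 and 231 CPM with vehicle and 346, 444, 371 and 311 CPM with TCPOBOP. The groups of both overlapped, the differences were 0.50 (adjusted p = 0.173) and 0.10 (adjusted p = 0.866), and in both vehicle library 2 was the highest of its group. Without that library Gpt was called as higher with TCPOBOP (adjusted p = 0.00447). In humanized liver Agxt was at 780.1, 802, 611 and 679 CPM with vehicle and 572, 556, 332 and 323 CPM with TCPOBOP, which did not overlap (-0.69, adjusted p = 0.172), and Gpt ranged over 416 to 517 CPM with vehicle and 344 to 492 CPM with TCPOBOP (-0.12, adjusted p = 0.843).

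Of the 9 genes that break down serine, glycine, histidine and proline, Hal and Amdhd1 fell in wild-type liver. Hal (histidine ammonia-lyase, the first step of histidine breakdown; NM_010401, chromosome 10, 93488768 to 93516761) was at 489, 969.9, 555 and 469 CPM with vehicle and 313, 254, 252 and 120.3 CPM with TCPOBOP. Amdhd1 (imidazolonepropionase, the third step; NM_027908, chromosome 10, 93523338 to 93540111) was at 199, 331, 296 and 286 CPM with vehicle and 149, 137, 136 and 92.6 CPM with TCPOBOP. In both genes TCPOBOP library 4 was the lowest of all 16 libraries, and no TCPOBOP library reached a vehicle library. Hal fell by 1.40 ± 0.27 (adjusted p = 0.00171) and Amdhd1 fell by 1.11 ± 0.20 (adjusted p = 0.000744). Uroc1 (urocanase, the second step) was at 670.0, 1698, 469 and 503 CPM with vehicle and 488, 565, 485 and 339 CPM with TCPOBOP. Vehicle library 2 was far above the other 3, the groups overlapped, and -0.83 ± 0.32 (adjusted p = 0.103) did not pass, with -0.22 without vehicle library 2 (adjusted p = 0.513) and a call without vehicle library 3 (adjusted p = 0.0481). Ftcd, the last enzyme of the route, ranged over 429 to 723 CPM with vehicle and 329 to 436 CPM with TCPOBOP (-0.43, adjusted p = 0.157). In humanized liver Hal was at 501, 728, 554 and 573 CPM with vehicle and 355, 453, 474 and 418 CPM with TCPOBOP and Amdhd1 at 354, 398, 338 and 353 CPM with vehicle and 207, 309, 239 and 199.9 CPM with TCPOBOP. Both were without overlap and not called (Hal -0.47, adjusted p = 0.382; Amdhd1 -0.60, adjusted p = 0.112).

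Hal and Amdhd1 are neighbours that converge on chromosome 10, with 6576 bases between their ends. Their proximal promoters, together with those of Bhmt and Etnppl, which had the largest falls, are printed because these 4 genes fell in wild-type liver and have listed starts. Promoters of RefSeq (build GRCm38.p6) were matched for 25 of the 35 genes by symbol. Not matched were Cps1, Asl, Arg1, Gls2, Gpt, Sds, Sdsl, Kynu, Mat1a and Cth. The 150 bases before the listed start, read 5′ to 3′ on the gene's strand, are given in lower case, with matches to the motifs searched in capitals. The first is the listed start of Hal (chr10:93488618-93488767, plus strand), then Amdhd1 (chr10:93540034-93540183, minus strand), Bhmt (chr13:93637759-93637908, minus strand) and the first of both starts listed for Etnppl (chr3:130617298-130617447, plus strand). The start listed for Amdhd1 lies just inside the span of the transcript given above.
Hal: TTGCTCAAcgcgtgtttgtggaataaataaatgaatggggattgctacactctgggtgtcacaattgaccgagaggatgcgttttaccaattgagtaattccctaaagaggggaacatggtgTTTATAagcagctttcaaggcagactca
Amdhd1: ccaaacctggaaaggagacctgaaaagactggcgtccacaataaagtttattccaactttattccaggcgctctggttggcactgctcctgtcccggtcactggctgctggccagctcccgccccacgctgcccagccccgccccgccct
Bhmt: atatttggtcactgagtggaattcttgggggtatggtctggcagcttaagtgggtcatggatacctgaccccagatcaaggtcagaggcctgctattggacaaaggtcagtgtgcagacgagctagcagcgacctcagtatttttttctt
Etnppl: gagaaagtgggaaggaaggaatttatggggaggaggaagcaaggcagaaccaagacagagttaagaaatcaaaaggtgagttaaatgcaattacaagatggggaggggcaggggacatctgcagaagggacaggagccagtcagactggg
Motifs were searched on both strands from 250 bases before to 50 after each start. They were TGACGTCA (cAMP response element), TGACG (its leading part, which every full element contains), TTGCNNAA (C/EBP), CAAAGTCCA (an HNF4 form), TATAAA (the box that places the start of transcription) and the full glucocorticoid response element. The capitals in Hal mark a C/EBP match that begins 150 bases before the start and a match of TATAAA on the other strand that begins 28 bases before it. No motif searched was found in the windows of Amdhd1, Bhmt or Etnppl. Of the 25 genes, 2 (8.0%, Hal and Hgd) held the C/EBP letters, against 12.2% of all 27025 genes with a promoter. TATAAA was in 4 of the 25 (Hal, Hgd, Ftcd and Tdo2) against 15.7%, the short cAMP form in 2 (8.0%, Ftcd and Nags) against 23.0%, and the full cAMP element, the HNF4 form and the glucocorticoid element in none, against 2.03%, 0.555% and 0.0111%. These are descriptions of letters in a short window.

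The serine dehydratase genes were variable in wild-type liver and separated by treatment in humanized liver. Sdsl (serine dehydratase-like; NM_133902, chromosome 5, 120458193 to 120472825) lies 3721 bases from Sds on chromosome 5. Sds (serine dehydratase, which turns serine into pyruvate) was at 358, 1084, 153 and 114 CPM in wild-type vehicle and 275, 278, 189 and 104 CPM in wild-type TCPOBOP livers, and Sdsl at 14.1, 48.8, 10.3 and 13.8 CPM with vehicle and 12.04, 15.3, 12.5 and 10.6 CPM with TCPOBOP. Vehicle library 2 was the highest for both, at several times the others for Sdsl, and neither was called (Sds -1.01, adjusted p = 0.234; Sdsl -0.79, adjusted p = 0.2). Without that library the differences were 0.03 for Sds and -0.01 for Sdsl. In humanized mice Sdsl went from 46.2, 43.5, 56.9 and 40.2 CPM to 24.1, 19.8, 12.5 and 11.02 CPM and fell by 1.48 ± 0.38 (adjusted p = 0.0492). Sds went from 846, 653, 819.8 and 847 CPM to 461, 371, 342 and 198 CPM, without overlap, and -1.21 ± 0.52 (adjusted p = 0.227) did not pass. Gldc (glycine decarboxylase), Prodh (proline dehydrogenase) and Aldh4a1, the next enzyme after Prodh, were not called in either strain, with differences of -0.15, -0.26 and -0.21 in wild-type and -0.34, 0.20 and 0.11 in humanized liver.

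None of the 8 genes of tyrosine and tryptophan breakdown was called with TCPOBOP in either strain. Their wild-type differences ran from -0.61 for Tat (tyrosine aminotransferase, the first step) to 0.15 for Hpd, with a median of -0.34. Kmo (kynurenine 3-monooxygenase; NM_133809, chromosome 1, 175632193 to 175660853) was at 246, 151, 291 and 319.6 CPM with vehicle and 199, 156, 179 and 146 CPM with TCPOBOP in wild-type liver, where vehicle library 2 fell among the TCPOBOP values (-0.57 ± 0.20, adjusted p = 0.0788). Without that library it was called as lower (adjusted p = 0.00414), as it was by DESeq2 (adjusted p = 0.034). In humanized liver Kmo went the other way, from 189, 254, 257 and 204 CPM to 360.4, 352, 306 and 295 CPM, with every TCPOBOP library above every vehicle library (0.54 ± 0.20, adjusted p = 0.172). Haao (which acts after Kmo and Kynu on the way to NAD) was at 457, 725, 409 and 366 CPM with vehicle and 364, 478, 330.1 and 259 CPM with TCPOBOP in wild-type and 718, 654, 615 and 645 CPM with vehicle and 887, 709, 482 and 441 CPM with TCPOBOP in humanized liver, with overlap in both (-0.45, adjusted p = 0.289 in wild-type and -0.06, adjusted p = 0.935 in humanized liver).

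Tdo2 (tryptophan dioxygenase), Kynu (kynureninase) and Fah (fumarylacetoacetase, the last step of tyrosine breakdown) were not called, with wild-type differences of -0.18, -0.37 and -0.08 and humanized differences of 0.09, -0.24 and -0.02. The 3 accessions of Kynu differed, the lowest at 0.437 of the highest, so its level depends on the transcript taken. Hpd (4-hydroxyphenylpyruvate dioxygenase) was at 1763, 2286, 1561 and 1605 CPM with vehicle and 1976, 2529, 1907 and 1594 CPM with TCPOBOP in wild-type and 3082, 2597, 2476 and 2834 CPM with vehicle and 1926, 2345, 1998 and 1790.2 CPM with TCPOBOP in humanized liver. Only the humanized groups did not overlap (-0.45, adjusted p = 0.216), and the wild-type difference was 0.15. Hgd (homogentisate dioxygenase, the next enzyme) was at 500.1, 536, 513 and 558 CPM with vehicle and 428, 491, 413 and 381 CPM with TCPOBOP in wild-type and 872, 803, 756 and 813 CPM with vehicle and 755, 630.0, 604 and 507 CPM with TCPOBOP in humanized liver. Its TCPOBOP libraries lay just below the vehicle libraries in both strains, without a call (wild-type -0.30, adjusted p = 0.242; humanized -0.38, adjusted p = 0.201).

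Of the 5 genes of the methionine cycle and transsulfuration, 3 fell in wild-type liver. Bhmt (betaine-homocysteine methyltransferase, which remakes methionine from homocysteine with betaine; NM_016668, chromosome 13, 93616891 to 93637758) was at 759, 864, 664 and 1334 CPM with vehicle and 209, 182, 213 and 71.5 CPM with TCPOBOP. All TCPOBOP libraries lay far below the lowest vehicle library, and Bhmt fell by 2.42 ± 0.34 (adjusted p = 8.42e-05), or 5.37-fold, with the smallest p of the 35. In humanized mice Bhmt was at 811, 903, 882 and 882 CPM with vehicle and 856, 1621, 597 and 948 CPM with TCPOBOP. These groups overlapped, with TCPOBOP library 2 highest and library 3 lowest, and the difference was 0.21 ± 0.32 (adjusted p = 0.796). Mat1a (methionine adenosyltransferase of adult liver, which makes S-adenosylmethionine; NM_133653, chromosome 14, 41105012 to 41124428) went from 3718, 4417, 3117 and 4533 CPM to 1855, 2336, 1476 and 1318 CPM in wild-type mice and fell by 1.18 ± 0.22 (adjusted p = 0.00116). In humanized mice it was at 3253, 4267, 4077 and 4288 CPM with vehicle and 3065, 2969, 3651 and 2259 CPM with TCPOBOP, which overlapped (-0.41 ± 0.22, adjusted p = 0.336).

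Cbs and Cth are the consecutive enzymes of transsulfuration, and they were called in different strains. Cbs (cystathionine beta-synthase; NM_144855, chromosome 17, 31612623 to 31637233) went from 622, 1392, 640.4 and 501 CPM to 414, 433, 310.3 and 261 CPM in wild-type mice and fell by 1.15 ± 0.28 (adjusted p = 0.00865). Without vehicle library 2 the difference was -0.73 (adjusted p = 0.0193). In humanized mice Cbs was at 881, 1114, 979 and 931 CPM with vehicle and 762, 746, 506 and 539 CPM with TCPOBOP, without overlap and without a call (-0.61 ± 0.27, adjusted p = 0.25). Cth (cystathionine gamma-lyase, which releases cysteine; NM_145953, chromosome 3, 157894248 to 157925081) was at 306, 321, 399 and 556 CPM with vehicle and 389, 419.7, 396 and 324 CPM with TCPOBOP in wild-type mice, with full overlap (-0.05 ± 0.20, adjusted p = 0.919). In humanized mice it went from 878, 884, 889 and 822 CPM, a tight group, to 391, 608, 542 and 429 CPM and fell by 0.82 ± 0.20 (adjusted p = 0.0398). The difference between the strains in the response was not called for Cbs (0.54 ± 0.39, adjusted p = 0.467) or Cth (-0.77 ± 0.28, adjusted p = 0.107). Gnmt (glycine N-methyltransferase, which uses up S-adenosylmethionine) ranged over 1461 to 3629 CPM with vehicle and 822 to 2026 CPM with TCPOBOP in wild-type liver (-0.68, adjusted p = 0.182), and without vehicle library 2 the difference was -0.27. In humanized liver it ranged over 2095 to 3319 CPM with vehicle and 1024 to 1688 CPM with TCPOBOP, and -1.04 ± 0.31 (adjusted p = 0.0883) was the uncalled difference nearest to the threshold there.

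**Figure D3:**
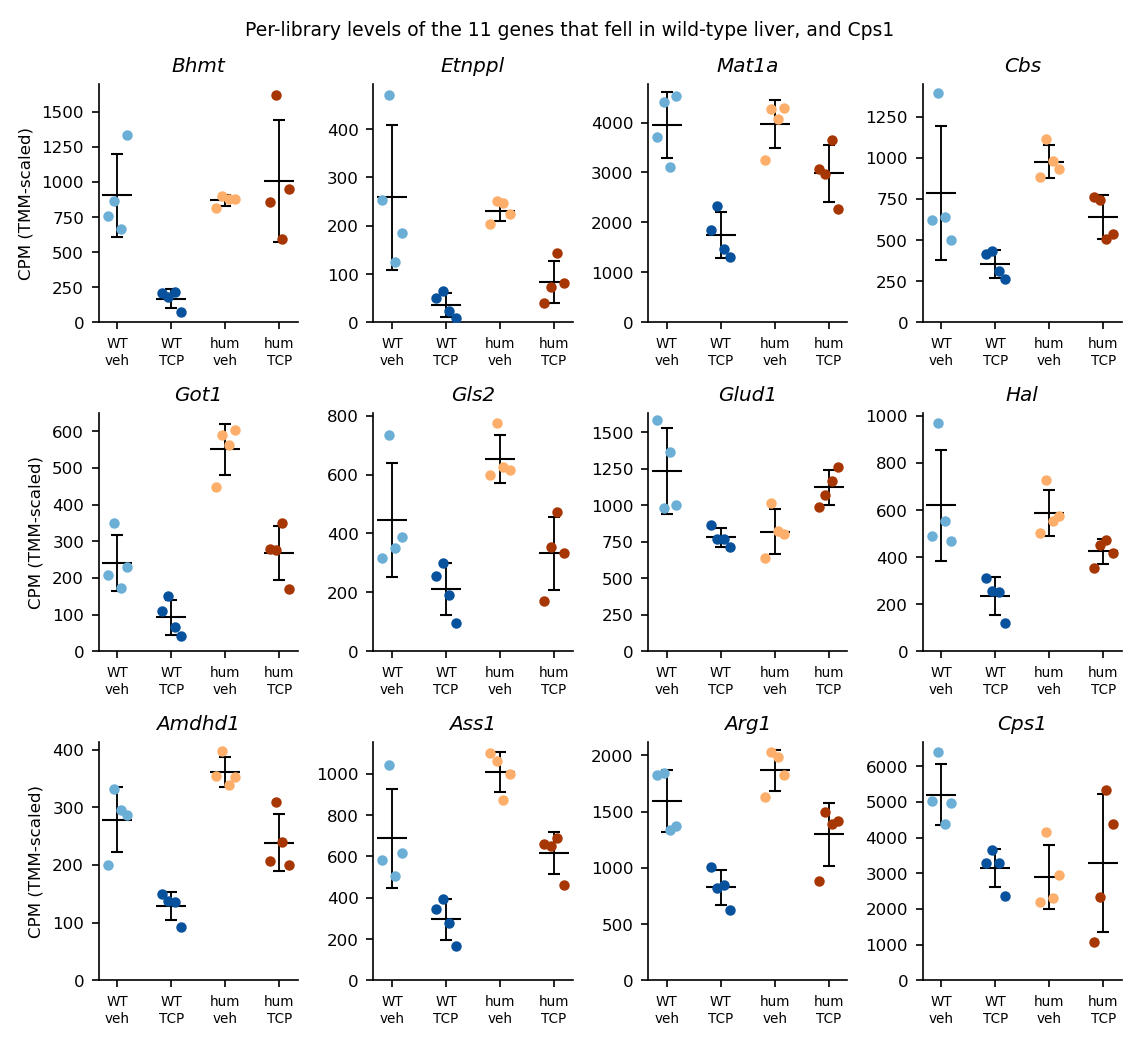
CPM (y axis, linear from 0) of the 11 genes that fell in wild-type liver and of Cps1, which was not called, in the 4 groups (WT, wild-type; hum, humanized; veh, vehicle; TCP, TCPOBOP). Points are libraries 1 to 4 from left to right and bars are the mean ± SD; in wild-type liver every TCPOBOP point lies below every vehicle point in all 12 panels.

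Of these 11 falls in wild-type liver, 9 were called under all 26 alternatives, and Glud1 and Gls2 were not. Without wild-type TCPOBOP library 4, the lowest for most members, those 9 ran from -2.50 for Etnppl to -0.83 for Arg1. The number that fell was 14 with DESeq2, 13 without humanized TCPOBOP libraries 1 and 2, 12 without library 2 of either wild-type group and 15 with the trends in length and GC removed. Hepatocyte markers fell in the same comparison, as given above, and whether the falls of the members go with them was not tested.

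In humanized liver both calls lay close to the threshold. With 1 library left out, the difference where the call was lost was -1.32 to -1.55 for Sdsl and -0.76 to -0.87 for Cth. Sdsl (adjusted p = 0.0492) was not called without humanized vehicle library 1, 2, 3 or 4 (0.133, 0.0748, 0.127 and 0.106) or without TCPOBOP library 2, 3 or 4 (0.0666, 0.132 and 0.138). Cth (adjusted p = 0.0398) was not called without any 1 of the vehicle libraries (0.105, 0.0698, 0.0891 and 0.0968) or without TCPOBOP library 3 or 4 (0.0696 and 0.105). Each was also lost without some wild-type libraries, which share the estimate of the spread: Sdsl without vehicle library 1 (0.0562) and both without TCPOBOP library 1, 2, 3 or 4 (Sdsl 0.0668, 0.0621, 0.0699 and 0.0653; Cth 0.0556, 0.0501, 0.0591 and 0.0507). Without humanized TCPOBOP libraries 1 and 2, 6 of the 35 fell and Cps1 rose. The 6 included Agxt (-1.09, adjusted p = 0.0165), Amdhd1 (-0.67, adjusted p = 0.0399), Ftcd (-0.62, adjusted p = 0.0496) and Hgd (-0.50, adjusted p = 0.0352). In the TCPOBOP libraries then left, 3 and 4, levels rose with transcript length, whereas they fell with it in the humanized vehicle libraries. With all libraries kept and the length and GC trends removed, Sdsl, Cth and Agxt were called (Agxt -0.65, adjusted p = 0.0266). Amdhd1, Ftcd and Hgd were not called there (adjusted p = 0.0565, 0.115 and 0.067). Without library 2 of either wild-type group, 5 fell, among them Gnmt (-1.01, adjusted p = 0.0124), Got1 (-1.01, adjusted p = 0.0397) and Asl (-0.72, adjusted p = 0.0443), and Kmo rose (0.56, adjusted p = 0.0469).

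Whether TCPOBOP acted differently in the strains was tested as the interaction, the humanized log2 difference minus the wild-type one. It was higher for 3 of the 35, Bhmt, Glud1 and Kmo, and lower for none, against 3.48% higher and 3.98% lower over all genes. For Bhmt the interaction was 2.63 ± 0.46 (adjusted p = 0.00199), with a wild-type difference of -2.42 and a humanized one of 0.21, and it held under all 25 alternatives, from 2.29 to 2.82. For Glud1 it was 1.11 ± 0.27 (adjusted p = 0.0163), from -0.66 and 0.45, and held under all 25. For Kmo it was 1.11 ± 0.29 (adjusted p = 0.0253), from -0.57 and 0.54, and it was lost without humanized vehicle library 1 or 4 (0.0597 and 0.0628), wild-type vehicle library 3 or 4 (0.0579 and 0.0567) or wild-type TCPOBOP library 2 or 4 (0.0503 and 0.0658). The median interaction of the 35 was 0.32. Of the markers, 2 of 8 hepatocyte genes had a higher interaction (median 0.70) and 7 of 8 cell-cycle genes a lower one, and their part in the members' interaction was not tested. The other 32 were not called, so for Ass1, Arg1, Gls2, Got1, Etnppl, Hal, Amdhd1, Mat1a and Cbs, called in wild-type liver alone, a difference between the strains was not shown. Without wild-type vehicle library 2, 3 were lower: Agxt (adjusted p = 0.0184), Gpt (0.0188) and Sdsl (0.00747). Otc was newly called as higher there (0.71, adjusted p = 0.0471). Without wild-type vehicle library 4, Cth was lower (0.0303). Without humanized TCPOBOP library 1, Cps1 was higher (0.0424), as it was without libraries 1 and 2 (1.51, adjusted p = 0.00637). With all libraries kept, the Cps1 interaction was 0.90 (adjusted p = 0.324), and 0.72 (adjusted p = 0.33) with the length and GC trends removed.

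Under vehicle, 5 of the 35 were higher in humanized than in wild-type liver and 1 was lower, against 7.11% and 8.95% of all genes. The 5 were Got1, Agxt, Hpd, Hgd and Cth. Their vehicle libraries, given above, did not overlap between the strains. Cth had the smallest p, with a difference of 1.13 ± 0.20 (adjusted p = 0.00336) or 2.19-fold, and was called under all 26 alternatives. Got1 was higher by 1.20 ± 0.32 (adjusted p = 0.0218) and Agxt by 1.07 ± 0.26 (adjusted p = 0.0162). Of the tyrosine enzymes, Hpd was higher by 0.61 ± 0.19 (adjusted p = 0.0372) and Hgd by 0.62 ± 0.15 (adjusted p = 0.0166). Glud1 was lower, with a difference of -0.59 ± 0.19 (adjusted p = 0.0439), with 3 of 4 humanized libraries below all wild-type ones. The trend with transcript length differed between these 2 groups, as given above. Transcripts of the 5 higher genes are 1404 to 2058 bases long and that of Glud1 3390, against a median of 2898. With the length and GC trends removed, Got1, Agxt, Hgd and Cth were still called as higher (1.10, 0.83, 0.42 and 0.89). Glud1 was still called as lower (-0.48, adjusted p = 0.0455), and Hpd was not called. Cps1 was lower without a call (-0.84 ± 0.36, adjusted p = 0.107), although its humanized vehicle libraries all lay below the wild-type ones, and it passed when humanized TCPOBOP library 1 was left out (adjusted p = 0.0248). With the length and GC trends removed, Cps1 was at -0.68 (adjusted p = 0.136).

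Single libraries moved this count, and the shares of all genes above belong to the fit of all libraries alone. Without wild-type vehicle library 2, in which many members were highest, 12 of the 35 were higher in humanized liver, adding Sdsl (adjusted p = 0.000375), Sds (0.00786), Ftcd (0.0176), Asl (0.0254), Cbs (0.0272), Ass1 (0.0303) and Gnmt (0.0406). Without humanized vehicle library 1, 3 or 4 the count was 2, 3 and 3, and without wild-type vehicle library 1 or 3 it was 3. The Glud1 call was lost without humanized vehicle library 1, 3 or 4 (0.133, 0.0961 and 0.102), wild-type vehicle library 1 or 3 (0.124 and 0.0958) or any 1 of the wild-type TCPOBOP libraries (0.0541 to 0.0608). With the length and GC trends removed, Hpd was at 0.31 (adjusted p = 0.187). It was also lost without any 1 of the humanized vehicle libraries (0.0552 to 0.102), wild-type vehicle library 1, 3 or 4 (0.0848 to 0.0916) or wild-type TCPOBOP library 3 (0.0525). Got1 was lost without humanized vehicle library 3 or 4 (0.0534 and 0.0576) or wild-type vehicle library 1 or 3 (0.0586 and 0.0548), and Agxt and Hgd without humanized vehicle library 1 (0.05 and 0.0517). Sdsl, the nearest uncalled member (adjusted p = 0.0547), passed without humanized TCPOBOP library 1 (0.0415). The strains also differed in the Kupffer and endothelial markers given above, and whether these go with the members was not tested.

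Under TCPOBOP, 12 of the 35 were higher in humanized than in wild-type liver and none was lower, against 11.8% and 12.8% of all genes. This comparison shares its libraries with those above, so it is not a separate line of evidence. In it 3 of 8 hepatocyte markers were higher in humanized liver (median 0.72, against 0.50 for the members), and 4 of 10 stellate, 3 of 10 endothelial and all 8 cell-cycle markers were lower. Their part in the members' differences was not tested. The 12 were Otc, Ass1 and Arg1 of the urea cycle, Got1, Hal and Amdhd1, the aromatic amino acid genes Hgd, Kmo and Haao, and Mat1a, Bhmt and Cbs. Among the called, Bhmt differed most, 5.96-fold (2.58 ± 0.34, adjusted p = 3.83e-05), then Got1 (1.54 ± 0.32, adjusted p = 0.00245) and Ass1 (1.06 ± 0.26, adjusted p = 0.00687). Otc, which was called in no other comparison, was higher by 0.75 ± 0.17 (adjusted p = 0.00404), with all humanized libraries above all wild-type ones. It did not pass with the length and GC trends removed (adjusted p = 0.149). Kmo (0.95 ± 0.21, adjusted p = 0.00291) and Amdhd1 (0.89 ± 0.20, adjusted p = 0.00324) did not overlap either, whereas Arg1, Haao and Mat1a had 1 humanized library among the wild-type values. For Mat1a (0.77 ± 0.22, adjusted p = 0.0153) that was library 4 and for Arg1 (0.65 ± 0.20, adjusted p = 0.0271) library 1. Arg1 did not pass with the length and GC trends removed (0.49, adjusted p = 0.144), with no filter (adjusted p = 0.0511) or with only the groups compared (adjusted p = 0.0596).

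The calls kept under all 26 alternatives were those of Ass1, Got1, Amdhd1, Kmo and Bhmt. Without wild-type TCPOBOP library 3 or 4 the count was 6 in each case. The calls lost were Arg1, Cbs, Haao, Hal, Hgd and Mat1a (adjusted p = 0.0603, 0.0886, 0.0724, 0.0557, 0.0522 and 0.0572 without library 3, and 0.0949, 0.105, 0.0922, 0.0851, 0.061 and 0.0587 without library 4). Cbs and Haao were also lost without humanized TCPOBOP library 1 (0.0743 and 0.0853), Arg1, Cbs, Haao and Hal without library 2 (0.0736, 0.083, 0.0646 and 0.062) and Hal without library 3 (0.0509). Arg1 was lost without wild-type TCPOBOP library 2 (0.0559) and Haao without library 1 (0.0521). Without humanized TCPOBOP libraries 1 and 2 it was 7, and Haao (0.39, adjusted p = 0.341), Cbs (0.58, adjusted p = 0.247), Hgd (adjusted p = 0.0957), Hal (adjusted p = 0.0604) and Mat1a (adjusted p = 0.0525) did not pass. Glud1, the nearest uncalled member (adjusted p = 0.0529), passed as higher without humanized vehicle library 1 or 2, humanized TCPOBOP library 1 or wild-type vehicle library 1 or 2 (0.0294 to 0.0491). Etnppl passed as higher without humanized TCPOBOP library 1, wild-type vehicle library 2 or wild-type TCPOBOP library 2 (0.0457, 0.0482 and 0.0365). Ftcd and Kynu passed without wild-type vehicle library 2 (0.0241 and 0.0323), Ftcd also without humanized TCPOBOP library 4 (0.0371), Kynu without library 1 (0.0271) and Asl without wild-type TCPOBOP library 2 (0.047). As lower, Gldc passed without humanized TCPOBOP library 4 (0.0295) and Gpt without wild-type vehicle library 2 (0.0378). Removing the length and GC trends added Glud1 (0.61, adjusted p = 0.00903), Asl (0.59, adjusted p = 0.0494) and Slc25a15 (0.43, adjusted p = 0.0278) as higher. It added Gpt as lower (-0.65, adjusted p = 0.00331).

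**Figure D4:**
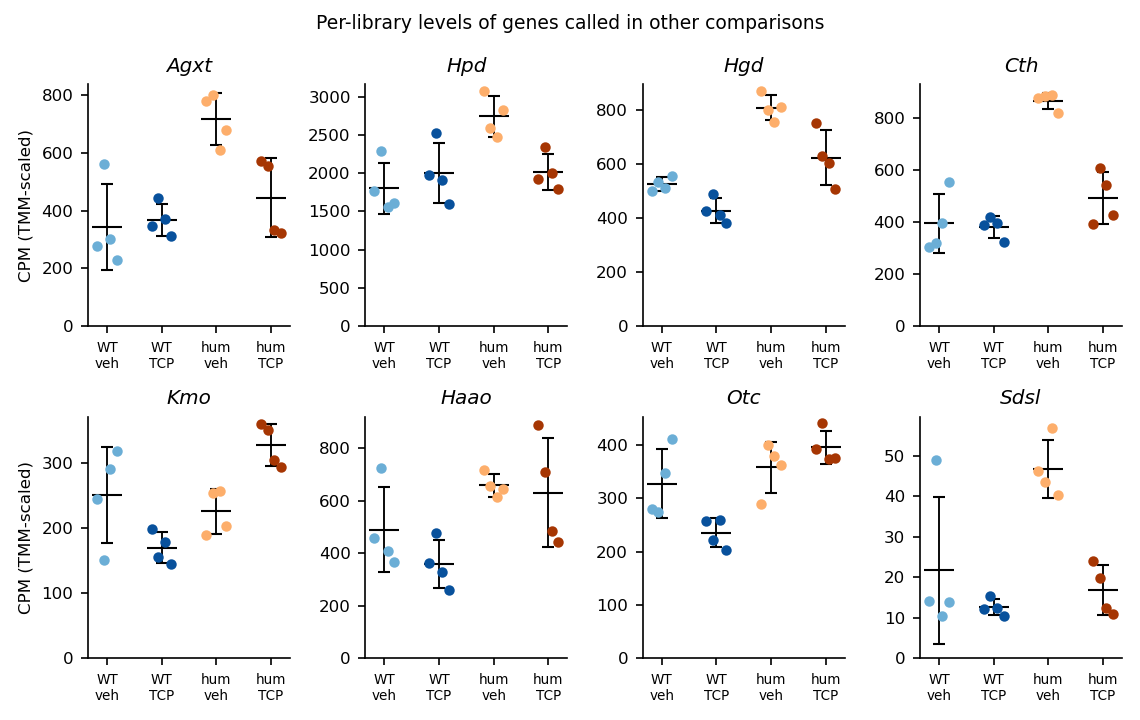
CPM (y axis, linear from 0) of 8 genes called in the humanized TCPOBOP comparison, the interaction or a comparison of strains, in the 4 groups (WT, wild-type; hum, humanized; veh, vehicle; TCP, TCPOBOP), with points for libraries 1 to 4 and bars for the mean ± SD. Agxt, Hpd, Hgd and Cth are highest in humanized vehicle livers, Kmo is highest in humanized TCPOBOP livers, and 1 wild-type vehicle library of Sdsl, at 48.8 CPM, lies with the humanized vehicle libraries.

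Isoenzymes and partners of the members were read from lists of related genes. In wild-type liver Mat2a, the methionine adenosyltransferase of other tissues and of growing liver cells, rose by 1.16 ± 0.22 (adjusted p = 0.00157) from 52.7, 34.2, 81.8 and 87.1 CPM to 139, 117, 166 and 151 CPM while Mat1a fell. The ratio of Mat1a to Mat2a thus lay at 38.1 to 129 with vehicle and at 8.71 to 19.9 with TCPOBOP. In humanized liver it lay at 41.9 to 57.6 with vehicle and at 25.9 to 41.2 with TCPOBOP. Bhmt2, which uses S-methylmethionine in place of betaine, was at 296, 289, 247 and 241 CPM with vehicle and 216, 211, 206 and 167 CPM with TCPOBOP in wild-type liver and was not called (-0.42 ± 0.16, adjusted p = 0.106), and the ratio of Bhmt to Bhmt2 lay at 2.57 to 5.53 with vehicle and at 0.429 to 1.03 with TCPOBOP. The mitochondrial Got2 was not called either (-0.31 ± 0.14, adjusted p = 0.181), and the ratio of Got1 to Got2 lay at 0.761 to 1.39 with vehicle and at 0.226 to 0.705 with TCPOBOP. These are ratios of CPM without a length correction and were not tested.

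Related nitrogen genes, 16 tested of 20 listed, had 1 that rose and 3 that fell in wild-type liver and 1 that fell in humanized liver. The ones that fell in wild-type liver were Aspg (-1.20, adjusted p = 0.00395), a liver asparaginase, Oat (-1.16, adjusted p = 0.0071), which interconverts ornithine and glutamate semialdehyde, and Glul (-0.71, adjusted p = 0.0357), the glutamine synthetase of pericentral hepatocytes. Agxt2 rose (0.64, adjusted p = 0.0324). In humanized liver Glul was at 804, 603, 643 and 769 CPM with vehicle and 1663, 1182, 952 and 956 CPM with TCPOBOP (0.75, adjusted p = 0.0723), and its interaction was called (1.46, adjusted p = 0.00652). Oat was higher in humanized liver under vehicle, at 469, 484, 639 and 708 CPM in wild-type and 2088, 1621, 1577 and 1709 CPM in humanized vehicle livers (1.60, adjusted p = 0.00257). Asns, asparagine synthetase, fell in humanized liver (-2.86, adjusted p = 0.00907) from 26.3 to 56.3 CPM with vehicle to 2.66 to 8.93 CPM with TCPOBOP and was at 5.44 to 20.3 CPM with vehicle and 12.1 to 58.7 CPM with TCPOBOP in wild-type liver (1.46, adjusted p = 0.0586), with an interaction of -4.32 ± 0.72 (adjusted p = 0.00133).

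Of 19 other aromatic and glycine genes tested, 3 rose and 2 fell in wild-type liver, and 2 fell in humanized liver. Acmsd, which turns the product of Haao away from NAD synthesis, rose in wild-type liver from 23.5, 44.7, 16.7 and 21.3 CPM to 126, 141, 164 and 152 CPM (2.45, adjusted p = 8.74e-06) and fell in humanized liver from 42.3, 62.4, 38.1 and 45.4 CPM to 12.7, 24.1, 22.6 and 21.4 CPM (-1.22, adjusted p = 0.0261). The groups did not overlap in either strain, and the interaction was -3.67 ± 0.38 (adjusted p = 1.91e-05). In wild-type liver Grhpr rose (0.75, adjusted p = 0.00149), and Hoga1 (-0.87, adjusted p = 0.0011) and the glycolate oxidase gene Hao1 (-1.03, adjusted p = 0.00244) fell. These make or use glyoxylate, the substrate of Agxt, which was not called there. Afmid, which makes kynurenine, fell in humanized liver (-0.72, adjusted p = 0.0484). Tdh was at 0 in all libraries.

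Of 20 other sulfur and methyl genes, 2 rose and 5 fell in wild-type liver. Besides Mat2a, the ones with the smallest p were Cdo1 (-1.10, adjusted p = 0.000864), which oxidizes the cysteine that Cth releases, Dmgdh (-1.05, adjusted p = 0.00135), which takes the dimethylglycine left by Bhmt, and sulfite oxidase, Suox (-1.13, adjusted p = 0.00141). In humanized liver Csad, which makes taurine precursors from the product of Cdo1, fell from 698, 592, 830.0 and 680.0 CPM to 178, 145, 187 and 203 CPM (-1.97, adjusted p = 0.00116).

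Of 22 branched-chain and lysine genes, 1 rose and 2 fell in wild-type liver, and none was called in humanized liver. Ppm1k, the phosphatase that activates the branched-chain ketoacid dehydrogenase, fell (-1.90, adjusted p = 0.000984) and its opposing kinase Bckdk rose (0.73, adjusted p = 0.0355), while the dehydrogenase subunits Bckdha, Bckdhb and Dbt were not called (-0.53, -0.33 and -0.19). Acad8 of valine breakdown fell (-0.80, adjusted p = 0.000363). Of 18 amino acid transporters, 1 rose and 4 fell: Slc1a2 (-1.68, adjusted p = 4.15e-05) for glutamate, the glutamine carrier Slc38a3 (-1.06, adjusted p = 0.00493), Slc38a4 (-0.91, adjusted p = 0.00965) and Slc7a2 (-1.22, adjusted p = 0.0126), a carrier of arginine and ornithine. Slc7a5 rose by 1.04 (adjusted p = 0.0163). In humanized liver Slc1a5 fell (-1.69, adjusted p = 0.0254) and Slc25a44 rose (0.72, adjusted p = 0.0484).

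Of 16 regulators of these pathways, Ppara (-1.21, adjusted p = 0.0111) and Ppargc1a (-1.12, adjusted p = 0.0227) fell in wild-type liver, and none was called in humanized liver. The glucagon receptor gene Gcgr (-0.23), the glucocorticoid receptor gene Nr3c1 (-0.28), Cebpa (-0.71), Hnf4a (-0.23) and Klf15 (-0.52) were not called in wild-type liver. Cebpa had a called interaction (1.44, adjusted p = 0.0291), as did Ppara (2.32, adjusted p = 0.00262). These lists hold genes chosen for their roles, and their counts stand beside 8.1% that rose and 4.99% that fell over all genes in wild-type liver.

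**Figure D5:**
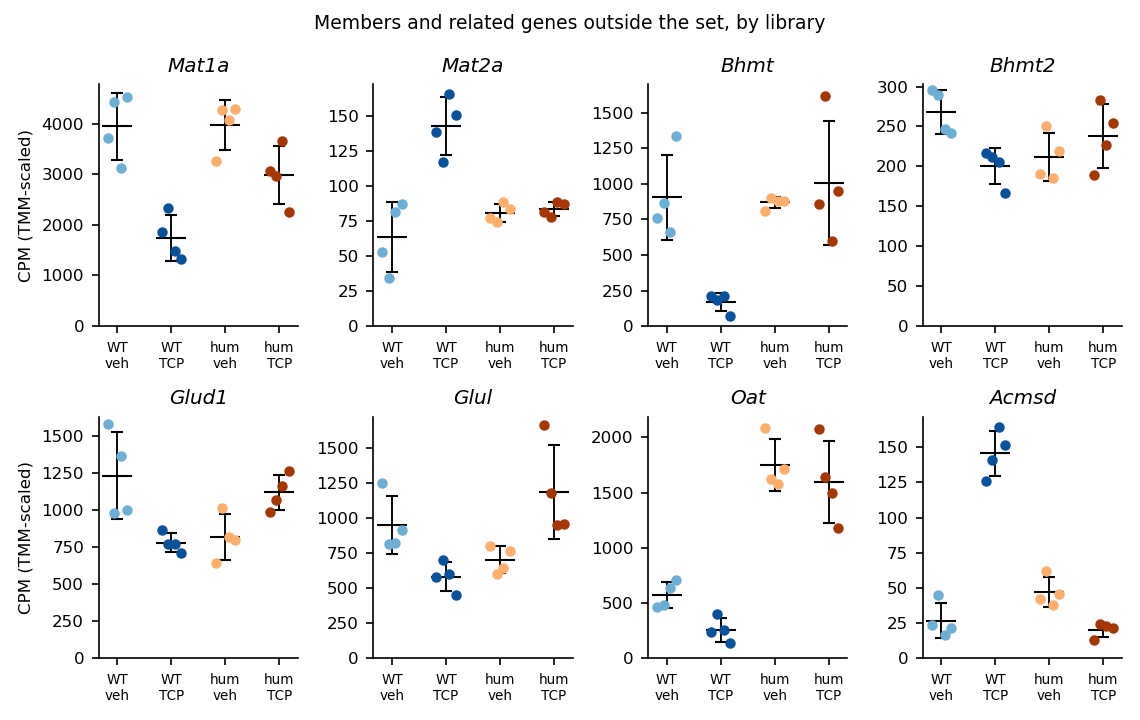
CPM (y axis, linear from 0) of Mat1a, Bhmt and Glud1 and of related genes outside the 35 (Mat2a, Bhmt2, Glul, Oat and Acmsd) in the 4 groups (WT, wild-type; hum, humanized; veh, vehicle; TCP, TCPOBOP), with points for libraries 1 to 4 and bars for the mean ± SD. In wild-type liver Mat1a is lower and Mat2a higher with TCPOBOP, and Acmsd goes up in wild-type and down in humanized liver.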

How the data were processed

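Liver RNA-seq was available for 16 libraries, 4 per group. The deposited table holds whole-number counts per transcript accession, and STAR, DESeq2 and the mm10 build are named without roles or versions in the submitters' processing notes; the counting program, annotation and strandedness are not stated there. Of the deposited counts of 20 or more, 74.9% were even, so they may have been rescaled before deposit. Accessions (40458) were joined to genes with RefSeq (40219) and GENCODE (125) names, taking for each gene the accession with the highest total. The 114 accessions that matched no name, holding 0.227 to 0.582% of counts, were kept as entries of their own. They are counted among the 24970 genes. Length and GC content were known for 12056 of the 12913 genes tested.

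edgeR 4.0.16 in R 4.3.3 fitted 4 group means to all libraries after filterByExpr and TMM scaling, with quasi-likelihood tests and Benjamini-Hochberg adjustment over all genes at 0.05. It was also run on simulated counts, which held no trend with length or GC. That run does not show how the tests behave under such trends. Tables and figures were made with Python 3.11.15 and pandas 2.3.3. All 35 genes are accounted for, with values per library for the urea cycle and for the genes most often called, and ranges for most others; from each related list up to 4 called genes with the smallest p were named in a comparison, and some uncalled ones for context. The members and lists were chosen with earlier results of these data known. Alternatives were RLE scaling, DESeq2 1.42.0, no low-count filter, only the groups compared, means over accessions, thinned libraries, a replicate block and each library left out. Chosen after seeing the data were leaving out humanized TCPOBOP libraries 1 and 2, leaving out library 2 of both wild-type groups, and removing trends in length and GC. The result for 1 gene of the related lists is not reported here.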

Additional observations from a re-analysis of the deposited data

Results flagged for a closer look

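In 14 of the 140 combinations of gene and group, 1 library lay apart from the other 3 by more than Dixon's 95% limit for 4 values, where chance gives about 1 in 20. Of these, 7 were wild-type vehicle library 2, each time the highest: Nags at 118 CPM (others 58.0 to 67.6), Gpt at 657 CPM (others 319.9 to 355), Sdsl at 48.8 CPM (others 10.3 to 14.1), Uroc1 at 1698 CPM (others 469 to 670.0), Tat at 4456 CPM (others 2243 to 2464), Gnmt at 3629 CPM (others 1461 to 1744) and Cbs at 1392 CPM (others 501 to 640.4). This is the library whose levels rose most with GC content (rho 0.59 across genes), and the part of that in these values was not tested.

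Humanized TCPOBOP library 4 was low for Ass1 at 464 CPM (others 651 to 689.6) and Asl at 400.4 CPM (others 686 to 744), which catalyse consecutive steps. Humanized TCPOBOP library 1 was low for Arg1 at 887 CPM (others 1394 to 1498). Among humanized vehicle livers, library 2 was high for Gls2 at 775 CPM (others 597 to 624) and low for Sds at 653 CPM (others 819.8 to 847), library 1 was high for Ftcd at 927 CPM (others 706 to 739.7) and library 4 was low for Cth at 822 CPM (others 878 to 889).

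The effect of TCPOBOP differed between the strains by the interaction test for Bhmt (2.63), Glud1 (1.11) and Kmo (1.11), as log2 differences, humanized minus wild-type.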

How the results depend on the processing

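Over 4515 values of a member in a comparison under an alternative, 4300 kept their side of the threshold, 105 newly passed, 110 no longer passed, and no called value changed sign; among values never called, 129 changed sign. The members that fell in wild-type liver numbered 11, or 14 with DESeq2, and 9 to 12 with 1 library left out. Those that rose there, 0 as reported, were 1 without library 2 of either wild-type group and 1 with the length and GC trends removed, and 0 to 1 with 1 library left out. In humanized liver 2 fell, but 1 with RLE scaling, 1 with no filter, 1 with means over accessions, 1 with thinned libraries, 4 with DESeq2, 6 without humanized TCPOBOP libraries 1 and 2, 5 without library 2 of either wild-type group and 0 to 3 with 1 library left out. The number that rose there was 1 without humanized TCPOBOP libraries 1 and 2, 1 without library 2 of either wild-type group and 0 to 1 with 1 library left out. The interaction was higher for 3, or 5 with DESeq2, and lower for 0, or 1 without humanized TCPOBOP libraries 1 and 2, 3 without library 2 of either wild-type group, 1 with the trends removed and 0 to 3 with 1 library left out.

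Under vehicle 5 were higher in humanized liver, or 12 without library 2 of either wild-type group and 2 to 12 with 1 library left out. The number lower was 1, or 0 with no filter, 0 with thinned libraries, 2 without humanized TCPOBOP libraries 1 and 2 and 0 to 2 with 1 library left out. Under TCPOBOP 12 were higher, or 7 without humanized TCPOBOP libraries 1 and 2 and 6 to 16 with 1 library left out. The number lower was 0, or 1 with the trends removed and 0 to 1 with 1 library left out. Where a count moved, the cause was not tested, except that leaving out libraries leaves fewer samples. The share of all genes called under each alternative is not given, so these counts do not show whether the members moved more than other genes.

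Libraries of different groups share only a number. Deviations of same-numbered libraries correlated at 0.1, 0.581, 0.218 and 0.176 between the wild-type groups and at 0.072, -0.126, -0.244 and -0.016 between the humanized groups, and the best match was the library's own number for 4, 1, 0 and 4 of 8 libraries, over the 4 pairs of groups compared. With the replicate block, 0 rose and 11 fell in wild-type liver, 0 and 2 in humanized liver, the interaction was higher for 3, 6 were higher and 0 lower under vehicle, and 12 higher and 1 lower under TCPOBOP. In humanized liver the block lost Cth (-0.83, adjusted p = 0.0565) and gained Gnmt (-1.07, adjusted p = 0.0469). The smallest count of a member in a library was 93, and thinning to 1 depth lost Cth in humanized liver (adjusted p = 0.0536) and Glud1 under vehicle (adjusted p = 0.0521).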
